A study of Mus musculus with 18 samples.

Results

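The genes examined here are 10 genes of the periportal hepatocyte programme, chosen by symbol: the 5 urea cycle enzymes Cps1, Otc, Ass1, Asl and Arg1, the amino acid catabolic enzymes Gls2, Hal and Sds, the cytochrome P450 gene Cyp2f2 and the adhesion gene Cdh1. The rule is the list of symbols and uses no measured value, though the list was chosen with earlier results of these data known. All 10 were found among the 52230 genes joined from the liver transcriptome files, and all 10 passed the filter on low counts that left 10938 genes to test. The livers came from GCKR-P446L-EMI-B6N mice, a knock-in line on a C57BL/6N background in which proline 446 of the glucokinase regulatory protein (GKRP, gene Gckr) is replaced by leucine. GKRP binds glucokinase in the hepatocyte nucleus. The study compared mice homozygous for the wild-type GKRP-446P allele (PP) with mice homozygous for GKRP-446L (LL), separately in males and females, to learn how the substitution alters the liver transcriptome.

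Each genotype was represented by 4 males and 5 females, with 1 RNA-seq library per mouse, and all were on standard chow diet. The sample labels give ages of 9 to 14 weeks, while the series text gives 14 weeks for all. By the labels, male PP mice were 9 to 14 weeks old, male LL 13 to 14, female PP 9 to 14 and female LL 11 to 14. The allele is carried in every cell, so whole-liver RNA cannot separate an effect within hepatocytes from one that starts in another organ. All mice come from 1 knock-in line, and the labels do not say which of them were littermates.

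Blood reaches a liver lobule at its portal edge and leaves at its central vein, and hepatocytes along this axis carry out different work. Periportal hepatocytes take up amino acids and turn their nitrogen into urea. CPS1 fixes ammonia and bicarbonate as carbamoyl phosphate in mitochondria, OTC joins it to ornithine to give citrulline, ASS1 and ASL convert citrulline with aspartate into arginine and fumarate, and ARG1 splits arginine into urea and ornithine. GLS2 releases ammonia from glutamine, HAL deaminates histidine and SDS deaminates serine. CYP2F2 oxidises small aromatic compounds, and CDH1 is E-cadherin, an epithelial adhesion protein. The urea cycle and amino acid catabolic genes among them are known to respond to glucagon, glucocorticoids and dietary protein. Periportal zonation is opposed by Wnt signalling around the central vein. In bulk liver RNA, fewer cells of a type and less RNA per cell cannot be told apart.

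RefSeq promoter sequences on build GRCm38.p6 were at hand for 4 of the 10 genes: Otc, Ass1, Hal and Cyp2f2. Those of Ass1 and Hal are shown because these genes varied together from mouse to mouse. That of Cyp2f2 is shown because it was the only one of the 10 called between the sexes, and only in LL mice. Each line holds the 250 bases before the annotated start, 5′ to 3′ on the plus strand. Capitals mark matches, on either strand, to the cAMP response core TGACG, the C/EBP motif TTGCNNAA, the nuclear receptor core AGGTCA or the TATA box TATAAA. No 2 of these matches overlap.
Ass1 (chr2:31470020-31470269): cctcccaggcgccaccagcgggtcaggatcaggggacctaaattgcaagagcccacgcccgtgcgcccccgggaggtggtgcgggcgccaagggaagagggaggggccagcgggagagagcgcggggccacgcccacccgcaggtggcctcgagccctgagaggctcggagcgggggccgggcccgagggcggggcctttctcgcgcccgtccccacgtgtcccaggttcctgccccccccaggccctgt
Hal (chr10:93488518-93488767): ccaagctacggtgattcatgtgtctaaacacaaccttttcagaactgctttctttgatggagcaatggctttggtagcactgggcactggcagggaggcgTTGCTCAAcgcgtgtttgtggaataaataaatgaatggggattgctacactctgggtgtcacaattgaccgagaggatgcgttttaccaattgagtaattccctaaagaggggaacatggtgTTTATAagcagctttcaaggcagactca
Cyp2f2 (chr7:27119705-27119954): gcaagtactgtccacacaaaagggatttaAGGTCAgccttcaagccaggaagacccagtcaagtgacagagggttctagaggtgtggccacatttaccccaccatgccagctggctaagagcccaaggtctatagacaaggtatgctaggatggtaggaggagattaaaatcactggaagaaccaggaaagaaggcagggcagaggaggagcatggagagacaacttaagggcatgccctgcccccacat
Hal held 1 C/EBP match and 1 TATA match, Cyp2f2 held 1 nuclear receptor core, and Ass1 and Otc held none of the 4 motifs. Over all 32851 promoters of the table, the 250 bases held TGACG in 17.8%, TTGCNNAA in 9.56%, AGGTCA in 14.0% and TATAAA in 12.4%. Ass1 and Hal, which varied together, shared none of the 4 motifs within these windows. A match is a run of letters and was not tested for binding.

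Libraries held 3794671 to 6613905 estimated counts. The mean fragment length, inferred here from transcript length minus effective length, ran from 203 to 631 bases and differed between groups. Female LL libraries had 247 to 376 bases and female PP libraries 369 to 631. Mitochondrial transcripts took 8.52% to 17.9% of the counts, the highest share being in male LL mouse 1. Hepatocyte markers were abundant in all libraries, with summed normalized counts of 472184 to 868820, while 6 of 8 cholangiocyte markers stayed under 5 normalized counts in every library. Gckr itself was at 518 ± 82.2 normalized counts in PP and 478 ± 24.6 in LL males, and at 611 ± 114 in PP and 592 ± 60.6 in LL females (SD), and it was not a DEG in any comparison. A count cannot show a single amino acid substitution, so Gckr does not check the genotype labels here. A normalized count is an estimated count divided by the DESeq2 size factor of its library.

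Compared per kilobase of the transcript that took most of its counts, Ass1 had the highest level of the 10, with a mean of 7477 normalized counts per kb over the 18 mice and a range of 5247 to 12420. Arg1 followed at 4732 (3432 to 8170), Cps1 at 2778 (1923 to 3886) and Cyp2f2 at 1728 (970 to 2563). Gls2 at 1103 (647 to 2130), Otc at 1099 (872 to 1392) and Asl at 852 (495 to 1154) lay close together, Sds was at 266 (76.2 to 658), Hal at 167 (105 to 279) and Cdh1 at 12.8 (3.12 to 27.8). The ranges over mice overlapped for every pair of neighbours in this order except Hal and Cdh1. Within each mouse, however, this measure put Ass1 above Arg1, Arg1 above Cps1, Cps1 above Cyp2f2 and Asl above Sds. The order of the other neighbours, apart from Hal and Cdh1, changed between mice. The cytosolic enzymes Ass1 and Arg1 had the highest levels. Of the mitochondrial pair, by this measure every mouse had more Cps1 than any mouse had Otc. For Gls2 the measure uses Gls2-207, which took 23.3% to 85.6% of the counts. TPM gave another order in part. Male PP medians were 264 TPM for Cyp2f2, 251 for Asl, 236 for Cps1, 108 for Otc and 77.3 for Gls2. In the other groups median Cps1 was above Cyp2f2. The lowest Cps1 value (176 TPM, male PP) lay below the highest Otc value (269 TPM, female LL).

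**Figure D1:**
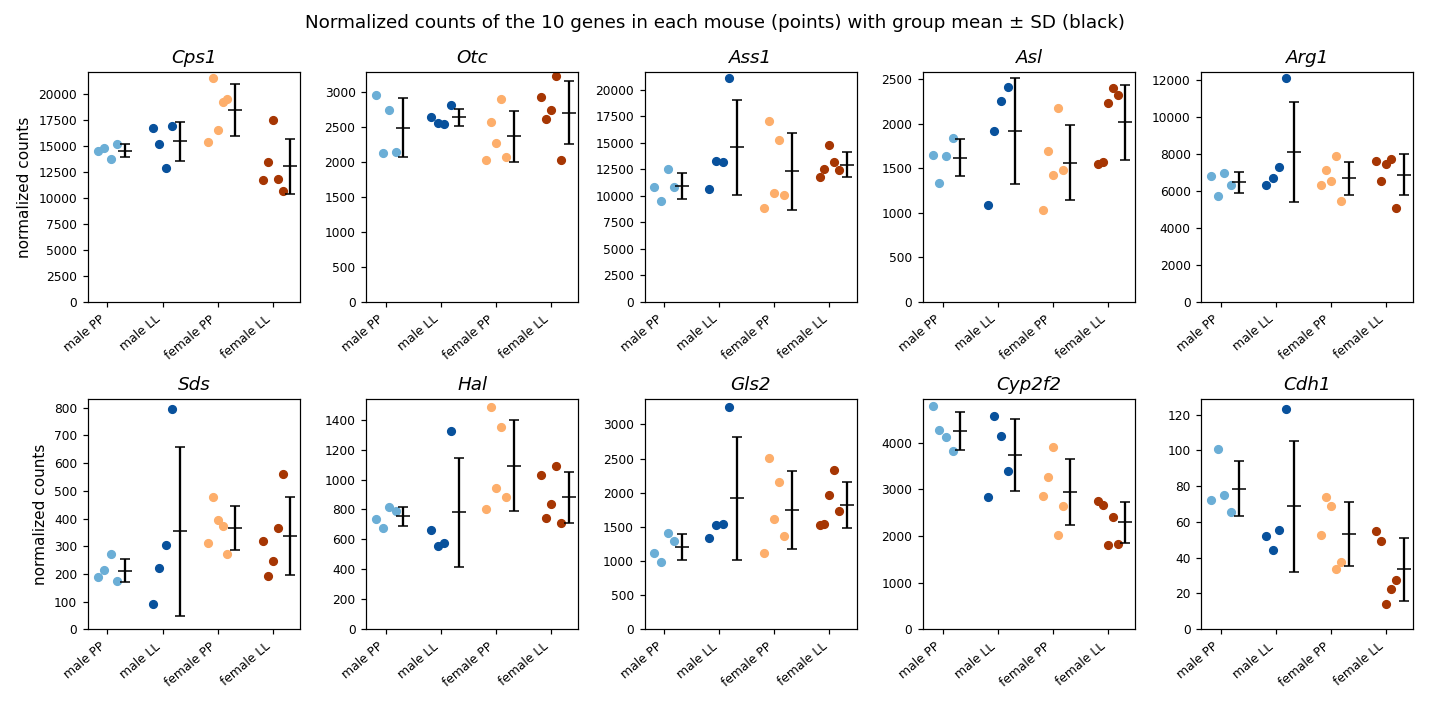
Normalized counts (y axes, each from 0) of the 10 genes in each mouse, by group (x axes); points are mice and the black mark is the group mean ± SD. Male LL mouse 4 is the highest point of all 18 mice in 6 genes (Ass1, Asl, Arg1, Sds, Gls2 and Cdh1), and the female LL mice lie below all male LL mice in Cyp2f2.

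Differentially expressed genes (DEGs) were those with an adjusted P below 0.05 and a fold above 1.3 or below 0.7, from a DESeq2 fit of all 18 libraries. None of the 10 genes was a DEG between LL and PP livers in either sex. In males, where 0.283% of all tested genes were DEGs, 2 of the 10 (Ass1 and Gls2) had an unadjusted P below 0.05, against 7.80% of all genes. In females, where 0.695% of all tested genes were DEGs, 2 of the 10 (Cps1 and Cyp2f2) had an unadjusted P below 0.05, against 13.0% of all genes. edgeR's quasi-likelihood test, which called 0.0274% of all genes in males and 0.0274% in females, also called 0 of the 10 in each sex, with 1 unadjusted P below 0.05 in males and 1 in females. In 0 of the 10 did LL and PP livers fail to overlap, against 4.07% of all genes in males and 2.66% in females.

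Between the sexes, female PP against male PP livers gave 0 DEGs among the 10, with 6.45% of all genes called, and 4 unadjusted P below 0.05 against 17.5% of all genes. edgeR called 0 as well (5.24% of all genes), also with 4 unadjusted P below 0.05. Female LL against male LL livers gave 1 DEG, Cyp2f2, with 6.11% of all genes called, and 2 unadjusted P below 0.05 against 20.0% of all genes. edgeR also called 1 of the 10, and 4.28% of all genes. The genotype by sex interaction gave 0 DEGs by either tool, with 0.137% of all genes called by DESeq2 and 0.0% by edgeR, and 1 unadjusted P below 0.05 (Cps1), against 5.67% of all genes. With 10 genes, each gene moves such a share by 10 percentage points.

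The median fold change of the 10 genes on the log2 scale was 0.17 in male LL against male PP, -0.04 in female LL against female PP, 0.11 in female PP against male PP and -0.12 in female LL against male LL. Over all tested genes, the medians of the same 4 comparisons lay between -0.0016 and 0.0134. In males 8 of the 10 had higher fitted levels in LL than in PP, and in females 5 of the 10 did. These counts describe directions of fitted values and passed no test.

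**Figure D2:**
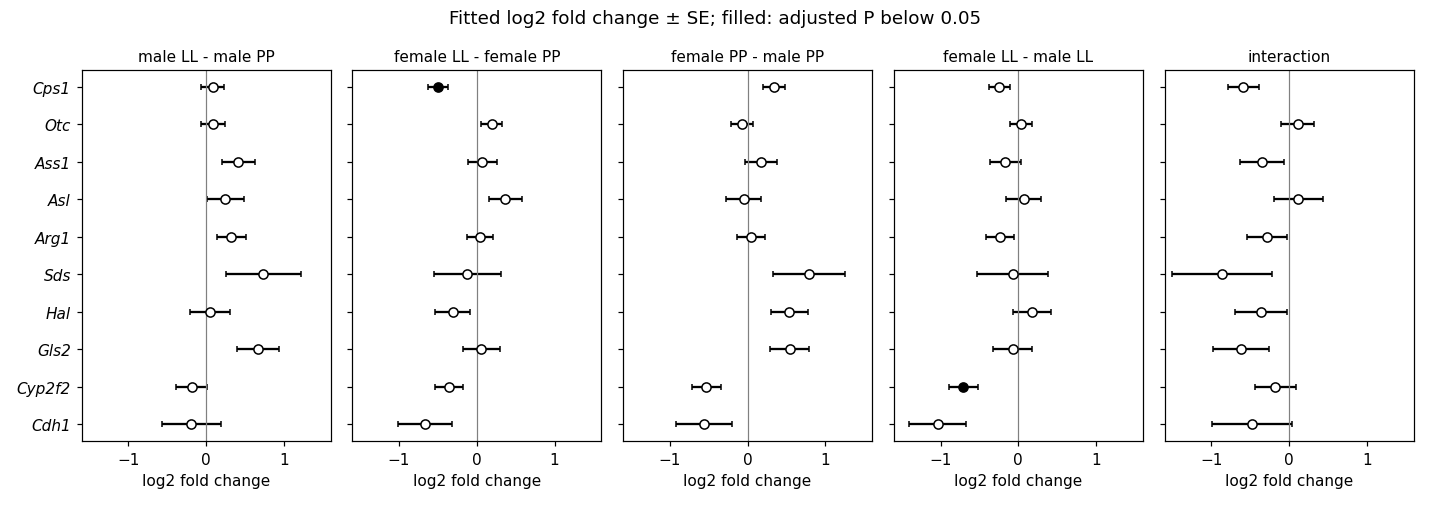
Fitted log2 fold change ± SE (x axes) of the 10 genes (rows) in the 5 comparisons (panels), from DESeq2; filled points have an adjusted P below 0.05. Only Cps1 in female LL against female PP (-0.50) and Cyp2f2 in female LL against male LL (-0.71) are filled.

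Cps1 (chromosome 1, 67161988 to 67270418, plus strand, GRCm39), the entry enzyme of the cycle, had the clearest genotype value of the 10. Female PP livers had 15390, 21585, 16573, 19253 and 19572 normalized counts, and female LL livers had 11773, 13512, 17480, 11874 and 10682. Of the LL mice 4 lay below all PP mice, and the fifth, mouse 3, lay within the PP range. The fitted difference was -0.50 ± 0.13 on the log2 scale (SE), a fold of 0.707, with an adjusted P of 0.0268 (DESeq2, Benjamini-Hochberg over all genes). The adjusted P passed and the fold missed the limit of 0.7, so Cps1 was not a DEG.

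In males the genotypes could not be separated for Cps1. Male PP livers had 14484, 14771, 13745 and 15215 normalized counts and male LL livers 16756, 15214, 12931 and 16926, with overlapping ranges and a fitted difference of 0.09 ± 0.15 on the log2 scale (adjusted P = 0.906, DESeq2). The difference between the female and male genotype effects was -0.59 ± 0.20, with an unadjusted P of 0.00308 and an adjusted P of 0.304 for the interaction in DESeq2. All 5 female PP mice had more Cps1 than all 4 male PP mice, a separation seen in 9.74% of all tested genes, and the fitted difference was 0.34 ± 0.14 (adjusted P = 0.129, DESeq2).

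The female Cps1 difference kept its direction over 28 alternatives, between -0.63 and -0.40 on the log2 scale, while its adjusted P was below 0.05 in 17 of them. The adjusted P was 0.203 in edgeR, 0.282 with a transcript length offset and 0.370 with fragment length as a term in DESeq2, and among fits without 1 library it ranged from 2.57e-05 without female LL mouse 3 to 0.145 without female PP mouse 5. It was called at the fold limit without female PP mouse 1 (log2 difference -0.56), female PP mouse 3 (-0.54) or female LL mouse 3 (-0.63). In the same comparison, the median difference over all 653 tested genes with a mean transcript length of 5000 to 6000 bases was -0.14, and that of the 1182 genes under 1000 bases was 0.25. Cps1 is read from 1 listed transcript of 5555 bases that shares no 31-base word with another gene. With fragment length as a term the difference was -0.47, and within groups the Cps1 deviations had r = 0.097 with fragment length over the 18 mice, with no test. Female LL libraries ran from 247 to 376 bases and female PP libraries from 369 to 631. The parts of genotype and fragment length in the female Cps1 difference therefore cannot be told apart.

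**Figure D3:**
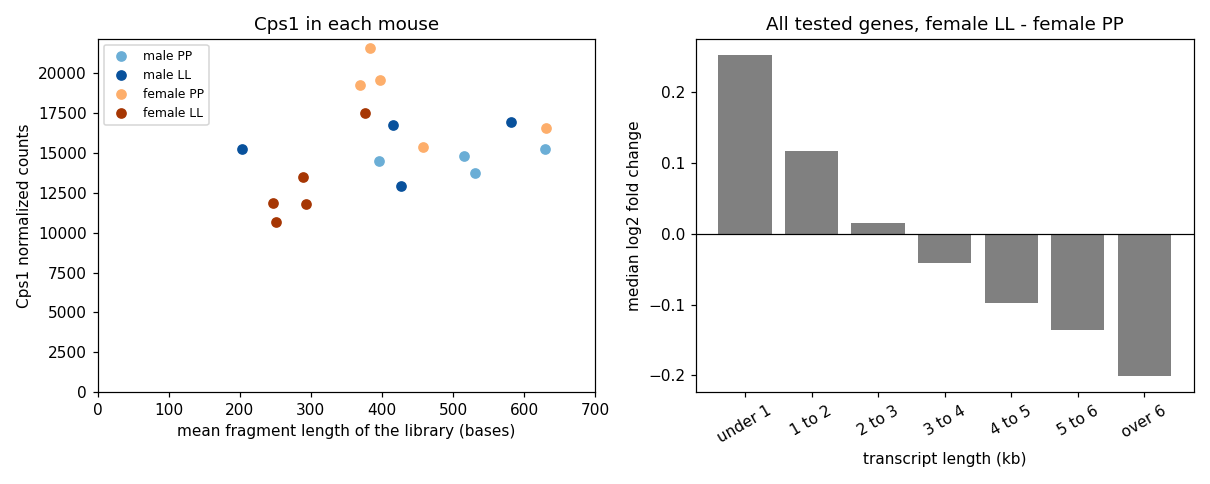
Left, Cps1 normalized counts (y axis) against the mean fragment length of each library in bases (x axis), 1 point per mouse; right, the median log2 fold change of all tested genes (y axis) by transcript length in kb (x axis) in female LL against female PP. Of the female LL libraries 4 lie at 247 to 294 bases and also hold the lowest Cps1 counts of the females, and the bars fall from 0.25 for transcripts under 1 kb to -0.20 for those over 6 kb.

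Otc (chromosome X, 10118503 to 10187265, plus strand), the enzyme after Cps1 in mitochondria, varied least between groups. Its normalized counts were 2492 ± 424 in male PP, 2640 ± 121 in male LL, 2368 ± 364 in female PP and 2706 ± 447 in female LL (SD), with overlapping ranges in every comparison. The fitted genotype differences were 0.08 ± 0.15 in males and 0.19 ± 0.14 in females on the log2 scale, with adjusted P of 0.923 and 0.520 (DESeq2). The ratio of Cps1 to Otc counts, chosen after the values were seen, was 6.64 to 9.44 in the female PP mice and 3.68 to 6.38 in the female LL mice. These ranges did not overlap, while in males the ratio was 4.89 to 7.10 in PP and 5.07 to 6.33 in LL mice. With fragment length as a term, the female genotype difference was -0.47 for Cps1 and 0.13 for Otc, and the ratio itself was not tested. How many other pairs of genes have a ratio that separates these groups was not counted. The main transcripts hold 5555 and 2319 bases. In this comparison the median of all genes was -0.14 at 5000 to 6000 bases and 0.02 at 2000 to 3000. The part of fragment length in the ratio was not tested.

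Ass1 (chromosome 2, 31352181 to 31410862, plus strand), which joins citrulline to aspartate, was at 10877, 9481, 12516 and 10839 normalized counts in male PP livers and at 10679, 13305, 13176 and 21064 in male LL livers. The groups overlapped, and the highest value of all 18 mice was that of male LL mouse 4. The coding Ass1-201 took 92.0% of Ass1 counts on average but 67.7% in that mouse, its lowest share, against 97.1% in female PP mouse 2. The other listed Ass1 transcripts are annotated as retained introns. The part of these shares in the high value was not tested. The fitted difference was 0.41 ± 0.21 on the log2 scale (adjusted P = 0.440, DESeq2), and 0.18 without that mouse. Female PP livers had 8898, 17097, 10244, 15268 and 10111 counts and female LL livers 11753, 12524, 14796, 13172 and 12451, so the LL values lay within the range of the PP values (0.07 ± 0.19, adjusted P = 0.903). Of the 31-base words of Ass1 transcripts 23.7% occur in the predicted gene Gm5424 as well, so reads may be divided between them.

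Asl (chromosome 5, 130040099 to 130058088, minus strand), which splits argininosuccinate, was at 1619 ± 209 normalized counts in male PP, 1916 ± 592 in male LL, 1564 ± 420 in female PP and 2015 ± 422 in female LL (SD). The fitted genotype difference was 0.24 ± 0.24 in males (adjusted P = 0.772) and 0.37 ± 0.21 in females (adjusted P = 0.399, DESeq2). Both signs turned to -0.13 and -0.74 with the transcript length offset. Its counts were divided among several coding transcripts, of which Asl-202 took 54.5% on average and 11.1% to 79.2% in single mice, and the cause of these turns was not tested.

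Arg1 (chromosome 10, 24791118 to 24803817, minus strand), which releases urea, was at 6824, 5714, 6971 and 6302 normalized counts in male PP livers and at 6305, 6710, 7266 and 12067 in male LL livers. Without mouse 4, the male LL values lay close to the PP range. The fitted difference was 0.33 ± 0.19 on the log2 scale in males (adjusted P = 0.515) and 0.04 ± 0.17 in females (adjusted P = 0.940, DESeq2), where PP livers had 5452 to 7889 counts and LL livers 5070 to 7698. Macrophages can express Arg1 too. The 7 Kupffer cell markers summed to 440 to 1203 normalized counts per library, and to 440 to 748 in the male LL livers. Of its 31-base words 19.2% are shared with the predicted gene Gm36172.

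Gls2 (chromosome 10, 128030316 to 128045873, plus strand), the liver glutaminase that feeds ammonia to Cps1, had 1118, 989, 1412 and 1296 normalized counts in male PP livers. Male LL livers had 1336, 1533, 1546 and 3257, so 1 LL mouse lay within the PP range and 3 above it. The fitted difference was 0.67 ± 0.27 on the log2 scale with an unadjusted P of 0.0125 and an adjusted P of 0.282 (DESeq2), and 0.29 without male LL mouse 4. Female PP livers had 1120, 2502, 1614, 2162 and 1360 counts and female LL livers 1533, 1536, 1969, 2336 and 1734, with the LL values inside the PP range (0.06 ± 0.24, adjusted P = 0.943).

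Hal (chromosome 10, 93324629 to 93355166, plus strand), the first enzyme of histidine breakdown, had 734, 674, 814 and 790 normalized counts in male PP livers and 664, 557, 579 and 1324 in male LL livers. The first 3 male LL mice lay below all male PP mice and the fourth above them, and the fitted difference of 0.05 ± 0.25 (adjusted P = 0.987, DESeq2) turned to -0.33 without the fourth. In females, PP livers had 801, 1484, 946, 1351 and 882 counts and LL livers 1031, 741, 838, 1090 and 712. These groups overlapped, and the fitted difference was -0.31 ± 0.23 (adjusted P = 0.537). Female PP livers had a higher mean than male PP livers by 0.54 ± 0.24 on the log2 scale (adjusted P = 0.188).

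Sds (chromosome 5, 120614585 to 120621997, plus strand), which turns serine into pyruvate and ammonia, had a wide spread relative to its level. Male LL livers had 92.0, 222, 305 and 794 normalized counts, which hold both the lowest and the highest of all 18 mice, against 173 to 272 in male PP livers (0.74 ± 0.48, adjusted P = 0.610, DESeq2). Without male LL mouse 4 the difference was -0.04. All 5 female PP mice, at 273 to 479 counts, lay above all 4 male PP mice, the other of the 2 genes of the set whose groups did not overlap there, against 9.74% of all genes. The fitted difference was 0.79 ± 0.46 (adjusted P = 0.383), and female LL livers overlapped female PP livers with 194 to 560 counts. Of the 31-base words of Sds 20.5% occur in other genes, most of them in its neighbour Plbd2.

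Estimated counts of Gls2 and Hal were divided among transcripts that differ in coding potential. Gls2-207, which the annotation lists as a retained intron transcript of 1529 bases, took 62.1% of the Gls2 counts on average, and the coding Gls2-201 of 2573 bases took 27.8%. Hal-202, coding and 5319 bases long, took 59.5% of the Hal counts, and Hal-201, annotated as subject to nonsense-mediated decay, took 24.5%. The Hal-202 share was 47.2% to 55.7% in female PP and 60.1% to 67.0% in female LL livers, and these ranges did not overlap. Gls2-207 took 46.5% ± 18.4 in female PP and 72.7% ± 10.5 in female LL livers, and its ranges overlapped.

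For 7 transcripts in the 4 comparisons of groups, chosen after the values were seen, the lowest P of an exact two-sided permutation test was 0.00794, for Hal-202 and Hal-201 in female LL against female PP livers (n = 5 each). That is the smallest P that 5 against 5 can give, and adjusted over the 28 tests it was 0.111. The share of Gls2-207 differed with an exact permutation P of 0.0238 (adjusted 0.167), and 0 of the 28 passed at an adjusted P below 0.05. Female LL libraries had the shorter fragments (mean 292 against 448 bases in female PP, exact permutation P = 0.0159, n = 5 each), and the part of fragment length in these shares was not tested.

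**Figure D4:**
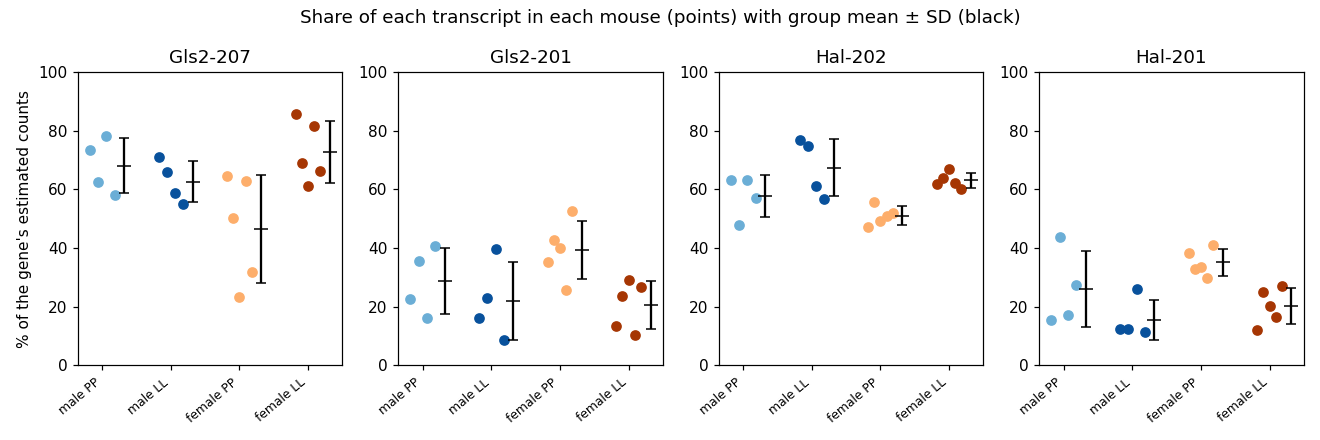
Share of 4 transcripts in the estimated counts of their gene (y axes, %) in each mouse by group (x axes); points are mice and the black mark is the group mean ± SD. Hal-202 lies at 47.2% to 55.7% in female PP and at 60.1% to 67.0% in female LL mice, while the male groups overlap.

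Cyp2f2 (chromosome 7, 26819322 to 26833090, plus strand), a marker of periportal hepatocytes, was the only one of the 10 to be a DEG. Male LL livers had 2834, 4564, 4142 and 3393 normalized counts and female LL livers 2750, 2652, 1811, 2404 and 1823. Every female LL mouse lay below every male LL mouse, as in 1 gene of the 10 and in 8.16% of all genes in either direction. Cyp2f2 was lower in female LL livers by 0.71 ± 0.19 on the log2 scale, a fold of 0.613, with an adjusted P of 0.00542 (DESeq2).

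PP livers had the same direction for Cyp2f2. Male PP livers had 4783, 4269, 4112 and 3812 normalized counts and female PP livers 2854, 3257, 3910, 2012 and 2642, with only female PP mouse 3 inside the male range. The fitted difference was -0.53 ± 0.19, a fold of 0.692, with an adjusted P of 0.0588 (DESeq2), which did not pass. The sex differences of the genotypes did not differ detectably (-0.17 ± 0.26, adjusted P = 0.958 for the interaction). The genotype difference was -0.18 ± 0.20 in males (adjusted P = 0.809) and -0.36 ± 0.18 in females (adjusted P = 0.296).

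The call for Cyp2f2 between LL sexes held in 26 of 28 alternatives. It was lost without male LL mouse 2 (-0.60, adjusted P = 0.0506, DESeq2) and in limma on log2(TPM + 1), where the difference was -0.43 (adjusted P = 0.318) against a median of 0.20 over all genes. Female LL mice were 11 to 14 and male LL mice 13 to 14 weeks old. With age as a term in DESeq2 the difference was -0.79 in LL mice (adjusted P = 3.72e-04) and -0.64 in PP mice (adjusted P = 0.00784). Endothelial cell markers summed to 682 to 1052 normalized counts in female LL and 631 to 902 in male LL livers, and hepatocyte markers to 653192 to 780116 and 554596 to 660108. Alb made up most of the hepatocyte sums, at 516706 to 637308 counts in female LL and 393299 to 503677 in male LL livers. The median log2 difference of the hepatocyte list was -0.19. The part of cell make-up in the Cyp2f2 difference was not tested.

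Cdh1 (chromosome 8, 107329941 to 107396880, plus strand) was the least abundant of the 10, with 13.8 to 123 normalized counts per mouse, so its values carry more counting error. Male LL livers had 51.8, 44.4, 55.3 and 123 counts and female LL livers 54.6, 49.4, 13.8, 22.2 and 27.4. The groups overlapped, and the fitted difference was -1.04 ± 0.37 on the log2 scale with an adjusted P of 0.0594 (DESeq2), which did not pass. It was -0.59 without male LL mouse 4 and it passed without female LL mouse 1 (-1.29, adjusted P = 0.0166), female LL mouse 2 (-1.22, 0.0288) or male LL mouse 2 (-1.20, 0.0429) and with age as a term (-1.22, 0.0175). Male PP livers had 65.7 to 101 and female PP livers 33.5 to 73.6 counts (-0.56 ± 0.36, adjusted P = 0.451).

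Biliary epithelium expresses Cdh1 as well. The 8 cholangiocyte markers summed to 54.4 to 137 normalized counts per library, and Epcam, Krt19, Krt7, Cftr and Cldn7 were among those that stayed under 5 in every library. The sums were 54.4 to 73.1 in male LL and 74.8 to 137 in female LL livers, and only 1 of the 8 markers passed the filter on low counts. Cdh1 and Cyp2f2 deviations from their group means had r = 0.498 (Pearson) and rho = 0.507 (Spearman) over the 18 mice (permutation P = 0.0742 and 0.0733, adjusted 0.196 and 0.206 over 45 pairs).

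Some pairs of the 10 genes deviated together from mouse to mouse within groups. Deviations of log2 normalized counts from the group means were correlated over the 18 mice for all 45 pairs of the 10 genes, with labels permuted within groups 100000 times and Benjamini-Hochberg adjustment over the 45. Ass1 and Gls2 had the closest relation, with r = 0.934 (Pearson, permutation P = 5e-05, adjusted 0.00112) and rho = 0.915 (Spearman, permutation P = 2e-05, adjusted 0.00075). Without the 2 mice farthest from the median of Ass1 the r was 0.874, and without male LL mouse 4 it was 0.900. Of the 45 pairs, 12 had an adjusted P below 0.05 for Pearson's r, 3 of them with Otc. The median r was 0.376 over the 45 pairs and 0.249 without male LL mouse 4. An r above 0.5 was found in 37.8% of the 45 pairs, against 4.9% of all pairs of the 10938 tested genes and 7.73% of the pairs of 3566 genes with a mean of at least 100 normalized counts. Of the 45 pairs 17 were above 0.5, and 14 without male LL mouse 4, while the shares of all genes were taken with that mouse included. The 45 pairs share genes and libraries, and this comparison of shares was given no test.

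Arg1 and Hal had an r of 0.850 (permutation P = 0.00087, adjusted 0.00979) and a rho of 0.808 (permutation P = 0.00058, adjusted 0.00652), and r was 0.758 without the 2 farthest mice. Hal and Gls2 had an r of 0.881 (permutation P = 0.00137, adjusted 0.0123) and a rho of 0.717 (permutation P = 0.00715, adjusted 0.0292), with r at 0.750 without the 2 farthest mice. Otc and Arg1 had an r of 0.692 (permutation P = 5e-05, adjusted 0.00112) and a rho of 0.763 (permutation P = 5e-05, adjusted 0.00075), with r at 0.569 without the 2 farthest mice and 0.870 without male LL mouse 4. Ass1 and Hal, whose promoters are printed above, had an r of 0.804 (permutation P = 0.00882, adjusted 0.0412) and a rho of 0.738 (permutation P = 0.0084, adjusted 0.0315), with r at 0.608 without the 2 farthest mice.

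Among the 15 pairs of Ass1, Asl, Arg1, Sds, Hal and Gls2, r ranged from 0.438 to 0.934 with a median of 0.730, and 9 of the 15 had an adjusted P below 0.05. These 6 genes were chosen after the correlations were seen, so the median is a description only. Leaving out male LL mouse 4 moved that median to 0.556 and the range to 0.0555 to 0.900, with Sds and Arg1 at 0.0555 and Sds and Hal at 0.115. Neither of these 2 pairs had passed, while Sds and Gls2 had (r = 0.677, adjusted permutation P = 0.0412, rho = 0.666, adjusted 0.0292) and moved to r = 0.413 without that mouse. None of the 9 pairs with Cyp2f2 passed, and their r lay between -0.334 and 0.498 with a median of -0.148. Library size, fragment length and RNA quality are shared by all genes of a library. Their part in these correlations was not tested.

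**Figure D5:**
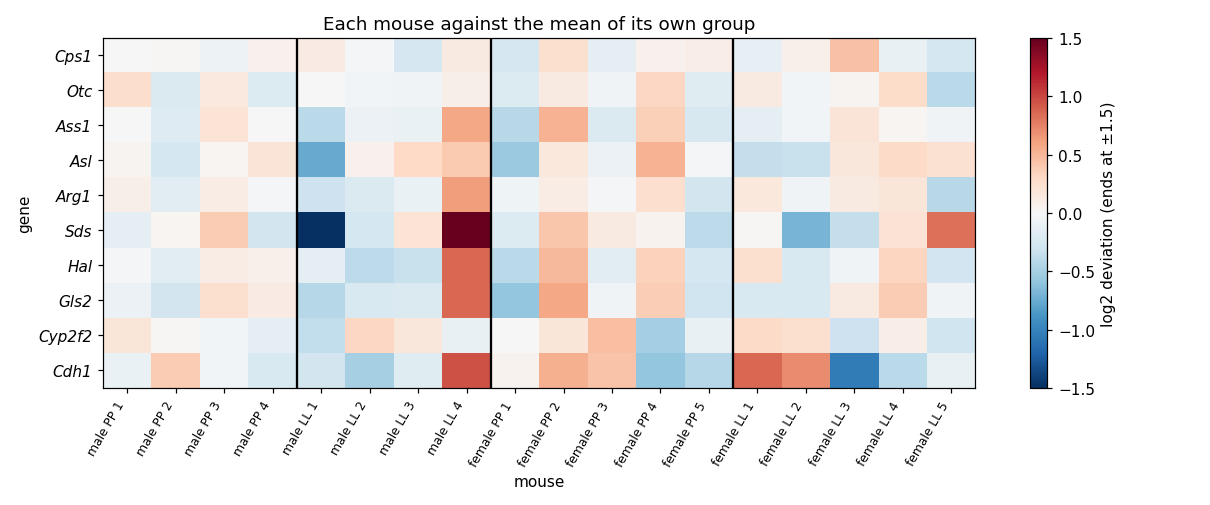
Log2 deviation of each mouse (columns, grouped, black lines between groups) from the mean of its own group for the 10 genes (rows); red is above and blue below, and colours end at ±1.5, which Sds passes in male LL mice 1 and 4. Male LL mouse 4 and female PP mice 2 and 4 are red, and female PP mouse 1 is blue, in Ass1, Gls2 and Hal together. Of these mice, Cyp2f2 is blue in male LL mouse 4 and female PP mouse 4. It is red in female PP mouse 2 and at -0.006 in female PP mouse 1.

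By the same measure over the 18 mice, with no test, the tested gene most like each of the 10 was Hspa9 for Cps1 (r = 0.831), Atp5f1c for Otc (0.907), Gls2 for Ass1 and Ass1 for Gls2 (0.934), Aldh1l1 for Asl (0.859) and Hal for Arg1 (0.850). It was Mrpl20 for Sds (0.906), Atp1b1 for Hal (0.883), Mup3 for Cyp2f2 (0.780) and Jade1 for Cdh1 (0.830). Ass1 and Gls2 were thus each other's most like gene, and the most like gene of Arg1 was another of the 10. Hspa9 encodes a mitochondrial chaperone and Atp5f1c a subunit of ATP synthase.

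Of 13 genes that supply the urea cycle (transporters, aminotransferases and the activator synthase Nags), all 13 were tested and 0 were DEGs in male LL against male PP livers by DESeq2 or edgeR. Of all genes 0.283% were DEGs there by DESeq2, a share at which a list of this size would hold few or none. Unadjusted P fell below 0.05 for 5 of the 13 by DESeq2, against 7.80% of all genes, and for 4 by edgeR. In female LL against female PP livers 1 was a DEG by DESeq2 (0.695% of all genes) and 0 by edgeR, and the list had a median of 0.02 on the log2 scale. The 1 gene was Slc25a13, the aspartate/glutamate carrier citrin, at -4.41 ± 1.17 (adjusted P = 0.0268, DESeq2). The value rested on female PP mouse 5 with 1037 normalized counts, against 5.87 to 11.8 in the other 4 and 8.75 to 13.6 in female LL livers. Without that mouse the difference was 0.32 (adjusted P = 0.952). Between the sexes 0 of the 13 were DEGs by either tool, with 4 unadjusted P below 0.05 in PP and 5 in LL mice by DESeq2 (4 and 4 by edgeR), against 17.5% and 20.0% of all genes by DESeq2.

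Of 16 further genes of amino acid metabolism, mainly of histidine, serine, glycine and glutamine, 15 were tested. Of these, 0 were DEGs between genotypes by DESeq2 or edgeR. There was 1 unadjusted P below 0.05 in males and 2 in females (1 in each by edgeR), against 7.80% and 13.0% of all genes by DESeq2. In female PP against male PP livers 1 was higher and 2 were lower by DESeq2 (6.45% of all genes were DEGs), and edgeR called 1 of the 3, Asns. Uroc1, which follows Hal in histidine breakdown, was higher by 0.45 ± 0.14 (adjusted P = 0.0308), and Hdc, which makes histamine from histidine, was lower by 0.87 ± 0.29 (adjusted P = 0.0356, 13.6 to 26.9 against 21.6 to 48.0 normalized counts). In edgeR the adjusted P was 0.0748 for Uroc1 and 0.0518 for Hdc, and their calls were kept in 17 and 16 of 28 alternatives. Asns, the asparagine synthetase, was at 8.0 to 42.0 normalized counts in male PP and 0 to 2.73 in female PP livers (adjusted P = 0.00138), and at 1.20 to 134 in male LL and 0 to 1.63 in female LL livers (adjusted P = 5.17e-04). Male LL mouse 4 held the 134. No fold is given for Asns because the female libraries are at or under 3 counts.

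Among 18 other genes known to be periportal or, like Alb, expressed in all hepatocytes with a periportal bias, 17 were tested. In male LL against male PP livers 2 were higher, where 0.283% of all genes were DEGs, among them Apoa4, an apolipoprotein, by 1.45 ± 0.29 (adjusted P = 7.23e-04, 390 to 815 against 147 to 261 normalized counts). In edgeR 0 of the 17 passed (6 unadjusted P below 0.05 by each tool, against 7.80% of all genes by DESeq2), with an adjusted P of 0.153 for Apoa4. In females 0 of the 17 were DEGs between genotypes by DESeq2 or edgeR (2 and 1 unadjusted P below 0.05, against 13.0% of all genes by DESeq2), and the list median was 0.12 in males and -0.14 in females.

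Between the sexes, 4 genes of this list were higher and 1 lower in female PP against male PP livers (6.45% of all genes were DEGs), and 2 were higher and 1 lower in female LL against male LL livers (6.11%). edgeR called 3 in each. Hsd17b6, a steroid-metabolising dehydrogenase, was higher in females by 1.52 ± 0.29 in PP (adjusted P = 9.30e-06) and 1.21 ± 0.29 in LL mice (adjusted P = 0.00133). Ctsc, the lysosomal protease cathepsin C, was higher by 1.01 ± 0.19 in both genotypes, and Serpina1c, a secreted protease inhibitor, was lower by 0.59 ± 0.18 in PP (adjusted P = 0.0229 in DESeq2 and 0.0814 in edgeR) and 0.79 ± 0.18 in LL mice. Alb, serum albumin, was higher in female PP than in male PP livers by 0.94 ± 0.10 (adjusted P = 2.16e-17), and its genotype effect differed between the sexes by -0.61 ± 0.15 (adjusted P = 0.0245, with 0.613 in edgeR).

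Pericentral genes, which mark the opposite end of the lobule, gave 0 DEGs of 17 tested between genotypes in both sexes by DESeq2 and edgeR, with medians of -0.28 in males and 0.15 in females. Unadjusted P fell below 0.05 for 5 of the 17 in males and 3 in females by DESeq2, against 7.80% and 13.0% of all genes. In female LL against male LL livers (6.11% of all genes were DEGs) 3 were higher and none lower: Lhpp, a phosphatase, by 0.92 ± 0.20 (adjusted P = 4.16e-04), Rgn, regucalcin, by 0.58 ± 0.13 (adjusted P = 7.20e-04) and Oat, which makes glutamate from ornithine, by 0.61 ± 0.21 (adjusted P = 0.0499, DESeq2). Cyp2f2 was lower in the same comparison, where 3 of the 10 genes had higher and 7 lower fitted values. Of the other periportal genes, Hsd17b6 and Ctsc were higher there and Serpina1c lower, with a list median of 0.16. Of the 3 pericentral genes, edgeR called Lhpp and Rgn. Oat kept its call in 10 of 28 alternatives, Lhpp in 27 and Rgn in 28. In female PP against male PP livers 0 of the 17 were DEGs by either tool. Each tool gave 5 unadjusted P below 0.05 there, against 17.5% of all genes by DESeq2. For female LL against male LL livers each tool gave 9 of the 17, against 20.0% of all genes by DESeq2.

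Of 14 regulators of urea cycle genes, among them the glucagon receptor Gcgr, Hnf4a, Cebpa and Cebpb, all were tested and 1 was a DEG in any of the 5 comparisons by DESeq2 (0.137% to 6.45% of all genes per comparison). Creb1, a transcription factor of the cAMP response, had 55.9, 60.9, 58.7, 57.1 and 70.1 normalized counts in female PP livers and 34.6, 42.5, 43.1, 38.3 and 28.5 in female LL livers. The groups did not overlap, as in 2.66% of all genes. Creb1 was lower by 0.69 ± 0.18 on the log2 scale (adjusted P = 0.0268), and its genotype effect differed between the sexes by -1.08 ± 0.28 (adjusted P = 0.0491, DESeq2). The first call was kept in 14 of 28 alternatives and lost in edgeR (adjusted P = 0.135), with fragment length as a term (0.184) and without each of 6 single female mice, and it had no adjusted P without 2 others. The second was kept in 3 of 27. edgeR called 1 of the 14 in female LL against male LL livers, also Creb1 (-0.58, adjusted P = 0.0475), where DESeq2 gave -0.57 with an adjusted P of 0.0605.

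Some markers of other liver cells differed between the sexes in PP livers. In female PP against male PP livers 4 of 8 endothelial and 5 of 7 stellate cell markers were higher, with list medians of 1.04 each on the log2 scale, and 1 of 5 red blood cell markers, Alas2, was lower by DESeq2, where 6.45% of all genes were DEGs. edgeR called 4 of the endothelial and 3 of the stellate cell markers, and Lrat and Hgf, the stellate markers lost there, kept their calls in 14 and 18 of 28 alternatives. Summed endothelial markers were 865 to 1320 normalized counts in female PP and 549 to 725 in male PP livers, and 682 to 1052 in female LL livers. The part of these cells in the Cps1, Sds and Cyp2f2 values between PP sexes was not tested.

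Between genotypes, 0 of the tested hepatocyte, cholangiocyte, Kupffer cell, endothelial, stellate cell, lymphocyte and red blood cell markers were DEGs in either sex by DESeq2 or edgeR. In females 6 of 8 endothelial markers had an unadjusted P below 0.05, with a list median of -0.57, and so had 3 of 5 red blood cell markers, with a median of 1.08, and 3 of 7 Kupffer cell markers, with a median of -0.54, against 13.0% of all genes. In males 5 of 7 Kupffer cell markers did, with a median of -0.59, against 7.80% of all genes. None of the 6 neutrophil markers passed the filter on low counts. In female LL against male LL livers, 6.11% of all genes were DEGs by DESeq2. Alas2 was lower again there, while the median of the red blood cell list was 0.55. Vsig4 of Kupffer cells was higher, with a list median of 0.18. Of the hepatocyte markers Apoc3 was higher and Serpina1c was lower, with a list median of -0.19. The part of these cells in the female Cps1 value was not tested.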

How the data were processed

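Total liver RNA was sequenced at 1 library per mouse. Per the labels and the study's methods, the authors ran Salmon (1.4.0 in the submitters' processing notes) against GENCODE M26 transcripts on GRCm39 and deposited, per transcript, estimated counts, TPM and lengths. Here the estimated counts were summed to genes by GENCODE M39 symbols (137570 of 139225 transcripts joined, at least 99.8% of counts in every library) and rounded. Genes reaching 10 counts in 4 or more libraries were tested with DESeq2 1.42.0 in R 4.3.3, with the 4 groups as levels of 1 fit and Benjamini-Hochberg adjustment, and called at the study's limits (no fold limit for the interaction). Independent filtering gave no adjusted P to Cdh1 in male LL against male PP. Alternatives were edgeR 4.0.16 (quasi-likelihood), limma 3.58.1 on log2(TPM + 1), other scalings, filters and covariates, and leaving out each library. The code was tested on simulated data. No 2 libraries of a group agreed within counting noise. Per-mouse depth of 3794671 to 6613905 limits low genes such as Cdh1. The mean fragment length was not read directly. It was inferred as the median of transcript length minus effective length over transcripts of at least 3000 bases.

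The 10 genes and all lists were chosen with earlier results of these data known. Named genes are the 10, Gckr, list genes called in any comparison (up to 4 per list and comparison, lowest adjusted P first) and the most like gene of each of the 10 among genes with a mean of at least 100 normalized counts. Of the hepatocyte markers, Tf was not analysed here, and some list genes are not reported here. Most like genes and correlations use 18 mice. Promoters come from RefSeq (GRCm38.p6), while other coordinates are GRCm39. Cps1, Asl, Arg1, Sds, Gls2 and Cdh1 promoters were not used here.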

Additional observations from a re-analysis of the deposited data

Results flagged for a closer look

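In the male LL group, mouse 4 stood far above the other 3 mice in 4 of the 10 genes, by Dixon's ratio of the gap to the group's range. Arg1 was at 12067 normalized counts against 6305 to 7266 in the others, Hal at 1324 against 557 to 664, Gls2 at 3257 against 1336 to 1546, and Cdh1 at 123 against 44.4 to 55.3. These are 4 flags in 40 groups screened, where chance flags about 1 group in 20, and all 4 come from 1 mouse whose genes are read from the same library. The library of this mouse had a mean fragment length of 582 bases, the longest of the male LL libraries.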

How the results depend on the processing

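Of 490 log2 fold changes of the 10 genes under 10 alternatives, 442 kept their direction and their side of the threshold, and of 900 under 18 left-out libraries 864 did. The Cyp2f2 call between LL sexes was lost in limma and without male LL mouse 2. Counts of called genes in female PP against male PP were 1 with the transcript length offset, 2 with only the 2 groups fitted, 1 with age as a term and 6 in limma on log2(TPM + 1), where the median of all genes was 0.50. In female LL against male LL they were 2 with age as a term and 0 in limma. Leaving out single libraries gave 0 to 1 called genes in female LL against female PP (Cps1), 0 to 1 in female PP against male PP, 1 to 2 in female LL against male LL (without male LL mouse 2, Cdh1 in place of Cyp2f2) and 0 to 1 for the interaction (Cps1, without female LL mouse 3).

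Signs turned for fitted differences that had not passed. With the transcript length offset, Asl became -0.13 in male LL against male PP, -0.74 in female LL against female PP, 0.05 in female PP against male PP, -0.56 in female LL against male LL and -0.61 in the interaction, Ass1 became -0.79 in female PP against male PP and 0.08 in the interaction, Otc 0.02 in female PP against male PP, Hal -0.18 in female LL against male LL, and Arg1 -0.01 and Gls2 -0.18 in female LL against female PP. With fragment length as a term, Sds became 0.21 in female LL against female PP, and Sds 0.31, Gls2 0.08 and Otc -0.01 in female LL against male LL. With age as a term, Gls2 became -0.03 in female LL against female PP and Asl 0.04 in female PP against male PP.

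In limma on log2(TPM + 1), male LL against male PP gave Asl -0.05, Cyp2f2 0.13 and Cdh1 0.12 (median of all genes 0.21), and female LL against female PP gave Asl -0.79, Arg1 -0.12 and Gls2 -0.15 (-0.08). Female PP against male PP gave Otc 0.80 (adjusted P = 0.00337), Asl 0.78, Cyp2f2 0.17 and Cdh1 0.19 (0.50), female LL against male LL gave Cps1 0.16, Ass1 0.21, Arg1 0.08, Sds 0.44 and Gls2 0.14 (0.20), and the interaction gave Otc -0.43 and Asl -0.74 (-0.29). Relative to those medians, Cyp2f2 was at -0.33 and Cdh1 at -0.31 in female PP against male PP. The cause of these turns was not tested.

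Leaving out 1 library at a time, values that turned sign ranged as follows. In male LL against male PP, Sds ranged from -0.04 to 1.05 and Hal from -0.33 to 0.19. In female LL against female PP, Ass1 ranged from -0.03 to 0.22, Arg1 from -0.02 to 0.13, Sds from -0.39 to 0.02 and Gls2 from -0.07 to 0.22. In female PP against male PP, Otc ranged from -0.16 to 0.02, Asl from -0.20 to 0.07 and Arg1 from -0.02 to 0.11. In female LL against male LL, Otc ranged from -0.04 to 0.12, Ass1 from -0.29 to 0.06, Asl from -0.12 to 0.20, Arg1 from -0.34 to 0.02, Sds from -0.39 to 0.70 and Gls2 from -0.21 to 0.31. In the interaction, Asl ranged from -0.07 to 0.27 and Hal from -0.49 to 0.02.

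Mice with the same number in different groups had correlations of -0.169 to 0.159 in their deviations from the group means, and no label says that a number marks a litter, so they share only a number. With the replicate block, called genes stayed at 0, 0, 0, 1 and 0 over the 5 comparisons, Hal became -0.02 in male LL against male PP, and Sds 0.03 and Gls2 0.03 in female LL against male LL. Depth limits Cdh1, the low Asns counts and Creb1.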
